A study of Mus musculus with 26 samples.

Results

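Transcripts of genes for splicing factors and heterogeneous nuclear ribonucleoproteins (hnRNPs) were compared in double positive (DP) cells of the mouse, precursors of T cells with CD4 and CD8 together on their surface, taken from 3 sites. The genes were chosen by symbol alone: every gene of the deposited table whose symbol starts with Srsf, Hnrnp, Snrp, Sf3a, Sf3b or U2af. This gave 51 of 13765 genes: 11 SR proteins (Srsf), 18 hnRNPs (Hnrnp), 11 proteins of the small nuclear ribonucleoproteins or snRNPs (Snrp), 8 subunits of SF3a and SF3b, and 3 of U2AF. Of these, 49 passed the filter on low values (at least 100 in at least 4 of 12 columns) and were tested among 9106 genes. Hnrnpa1 and Srsf12 did not pass.

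DP cells without surface T-cell receptor were sorted from the thymus, the adipose tissue of the mediastinum and the arch of the aorta of female C57BL/6J mice aged 8 weeks, with no genetic change or treatment named in any group. Tissue of 5 mice was joined in each pool. There were 4 pools per tissue, which is the replicate here (n = 4), and 26 libraries in all: 9 from thymus, 8 from adipose tissue and 9 from arch. Enzymatic digestion is stated for arch and adipose tissue and not for thymus, so digestion and site cannot be told apart. Each library came from the lysate of 200 sorted cells after 18 cycles of amplification and was read as single ends of 50 bases. Values are normalised read counts, which are reads divided by a size factor per pool.

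Splicing removes introns from new transcripts. The snRNPs build the spliceosome on each intron: U1 marks the start of the intron, U2AF binds the pyrimidine tract and the terminal AG, and U2 with its SF3a and SF3b subunits takes hold of the branch point. SR proteins mostly promote the use of nearby exons, whereas hnRNPs coat the new transcript and often repress exons. Developing T cells rely on this machinery for isoform choices such as those of Ptprc, whose variable exons are regulated by hnRNP L and the related hnRNP LL.

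Many of these genes have processed pseudogenes, copies of the spliced transcript elsewhere in the genome, so a read of 50 bases may fit several places. The share of 50-base windows of the longest protein-coding transcript that also occur in an annotated transcript of another gene was therefore computed from GENCODE vM21 (GRCm38) and is called the shared sequence below. How the authors' counting treated such reads is not given in the sources used here. Hnrnpa1 has shared sequence of 46.4% with 19 other genes, 18 of them pseudogenes. The sequences shown are RefSeq promoter windows (GRCm38.p6), from 250 bases before to 50 bases after a transcript start. Snrpg (chr6:86371290-86371589, + strand) and Hnrnpf (chr6:117917044-117917343, + strand, the 1 of its 4 windows with a motif searched for) are shown because only these genes passed the test below, and Hnrnpa2b1 (chr6:51469796-51470095, - strand) because it had the highest level per kilobase of transcript. Capitals mark the cAMP response element TGACGTCA in Snrpg and heat shock elements in Hnrnpf and Hnrnpa2b1.
Snrpg promoter: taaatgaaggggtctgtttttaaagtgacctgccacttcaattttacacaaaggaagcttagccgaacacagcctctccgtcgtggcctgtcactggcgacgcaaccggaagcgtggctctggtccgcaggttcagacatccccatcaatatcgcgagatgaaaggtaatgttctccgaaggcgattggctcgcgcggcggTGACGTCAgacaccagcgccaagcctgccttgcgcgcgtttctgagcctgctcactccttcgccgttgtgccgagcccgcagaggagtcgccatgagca
Hnrnpf promoter: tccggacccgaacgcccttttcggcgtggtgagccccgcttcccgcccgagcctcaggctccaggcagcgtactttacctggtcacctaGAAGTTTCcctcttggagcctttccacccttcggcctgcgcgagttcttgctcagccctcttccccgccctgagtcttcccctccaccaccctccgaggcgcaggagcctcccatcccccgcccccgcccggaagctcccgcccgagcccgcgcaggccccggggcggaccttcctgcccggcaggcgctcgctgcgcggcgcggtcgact
Hnrnpa2b1 promoter: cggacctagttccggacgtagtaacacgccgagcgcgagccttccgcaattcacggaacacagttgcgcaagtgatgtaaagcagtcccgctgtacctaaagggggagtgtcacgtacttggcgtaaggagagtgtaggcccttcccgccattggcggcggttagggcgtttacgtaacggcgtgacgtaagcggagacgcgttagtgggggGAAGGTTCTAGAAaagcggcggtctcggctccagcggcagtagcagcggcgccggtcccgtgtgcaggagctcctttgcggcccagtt

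Promoter windows were matched for 45 of the 51 genes (60 windows of 32851 in the table), and motifs were searched on both strands. TGACGTCA was in 1.79% of all windows and in 2 of the 60 (3.33%), the window of Snrpg and 1 of the 2 of Snrpa. A heat shock element of 2 units (TTCNNGAA or GAANNTTC) was in 15.1% of all windows and in 9 of the 60 (15%), which belong to Hnrnpa2b1, Hnrnpf, Hnrnpl, Sf3b2, Snrpd2, Snrpe and Srsf9. The heat shock element of 3 units, which continues the form of 2 units by 1 more unit at the same spacing and so contains it, was in 0.603% of all windows and in 4 of the 60 (6.67%). Those 4 are overlapping windows of only 2 genes, Hnrnpa2b1 and Sf3b2. The AP-1 site TGANTCA was in 7.81% of all windows and 3.33% of these, in Hnrnpa1 and Snrpc. A match describes the letters in a window and is no evidence that a factor binds there.

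Recovered reads per pool ranged from 11577253 to 34599519, and 9091 to 11894 genes had at least 1 read. Thymus pool 3 and arch pools 2 and 4 had the fewest reads per library. All 11 T lineage markers had reads in each tissue, and their summed level was 23062 to 25956 CPM (reads scaled to an equal total per pool) in thymus, 8727 to 16631 in adipose tissue and 10434 to 11526 in arch. Markers of other cells stood out in single pools. In arch pool 4 the 10 fibroblast markers together reached 6051 CPM, against 125 to 315 in the other arch pools. In arch pool 2, 7 smooth muscle markers summed to 1573 CPM (0.560 to 54.0 in the others) and 10 macrophage markers to 976 CPM (0.115 to 8.54). The 6 B cell markers summed to 1241 CPM in adipose pool 1 (27.4 to 182 in the others), where macrophage markers reached 259 CPM (0 to 11.9) and 4 adipocyte markers 178 CPM (0 to 11.5). That pool also had the highest adipose sums of fibroblast markers, 389 CPM (59.1 to 136 in the others), and of endothelial markers, 243 CPM (65.3 to 126). Among defining markers, Myh11 and Cnn1 had no reads in adipose tissue or thymus, Cd79a and Csf1r none in thymus and Cdh5 and Kdr none in thymus or arch. Other markers of these lists did have reads. In thymus, B cell markers summed to 71.1 to 214 CPM (mostly Cd79b) and fibroblast markers to 88.9 to 298 CPM (mostly Gsn). Endothelial markers, with Pecam1 highest, summed to 27.7 to 108 CPM in thymus and 65.6 to 112 CPM in arch. Differences that involve arch were also computed without arch pools 2 and 4, an alternative chosen after seeing the data, and for the genes named below these values are given where they ended a call or moved a difference by over 1.5 times.

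Few of the splicing genes passed the test between the sites. Of the 49 tested genes, 2 passed the threshold between arch and thymus (4.08%): Snrpg, a subunit of the Sm ring of snRNPs, was higher in arch, and Hnrnpf, which binds G tracts, was lower. The background was 6.57% of all genes tested (3.99% higher and 2.58% lower). None passed between adipose tissue and thymus, where the background was 2.84% (2.17% higher and 0.67% lower), or between arch and adipose tissue, where it was 0.176% (0.0988% higher and 0.0769% lower). The test was limma with Benjamini-Hochberg adjustment over all 9106 genes at an adjusted p under 0.05. At an unadjusted p under 0.05 the 3 counts were 7 (14.3%), 8 (16.3%) and 2 (4.08%) of 49, against 22.7%, 12.8% and 10.5% of all genes. For the comparisons without a call, edgeR on the recovered reads called 1 and 0 of these genes, against 212 and 8 of all 9106. DESeq2 called 2 and 0 of these genes, against 5.92% and 1.83% of all genes. In bulk samples, fewer cells of a type and less RNA per cell cannot be told apart.

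Most differences were under 1 log2 unit in size. Arch minus thymus, the median difference of the 49 genes was 0.14 on the log2(value + 20) scale, against -0.20 for all genes tested, and the median absolute difference was 0.40 against 0.80. Adipose tissue minus thymus gave 0.07 against -0.01, with absolute medians of 0.24 against 0.59, and arch minus adipose tissue 0.01 against -0.17, with 0.25 against 0.58. The 95% interval of the difference lay wholly within 1 log2 unit either way for 22, 24 and 26 of the 49 genes (44.9%, 48.98% and 53.1%), against 8.20%, 10.5% and 11.9% of all genes. These genes are also more abundant than most, with a median of 3379 normalised read counts against 878, and abundant genes have narrower intervals. Pools of the 2 tissues did not overlap for 1 of the 49 genes in arch against thymus (higher, background 6.6%; 0 lower, background 6.64%). In adipose tissue against thymus it was 3 higher (background 5.48%) and 1 lower (4.99%), and in arch against adipose tissue 1 higher (2.46%) and 2 lower (2.89%). Arch and adipose tissue are each compared with the same thymus pools. Centring each pool on its median gene moved the median of all genes by 0.108 in arch minus thymus. Without arch pools 2 and 4 the median of the 49 was 0.04 in arch minus thymus, against -0.01 for all genes.

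**Figure D1:**
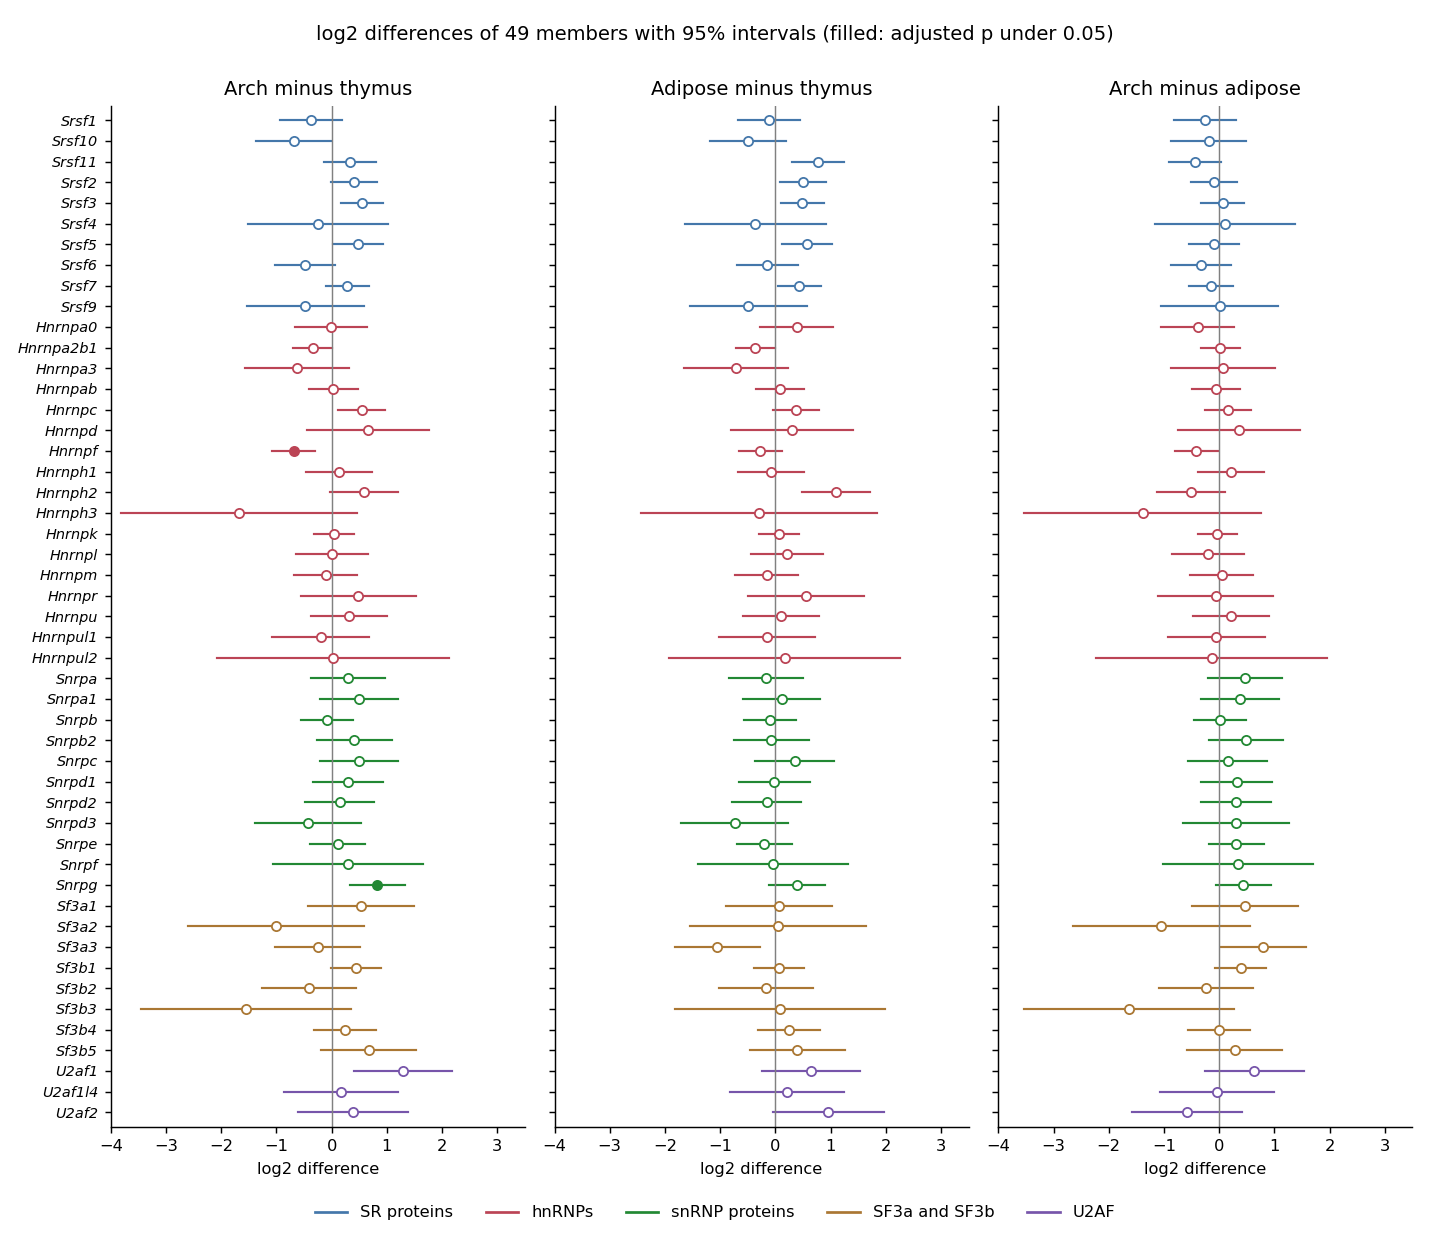
log2 differences of the 49 tested genes (x axes, from values + 20) with 95% intervals in the 3 comparisons, coloured by family; filled points passed the limma threshold. Only Hnrnpf and Snrpg in arch minus thymus are filled, and Hnrnph3, Hnrnpul2 and Sf3b3 have the widest intervals.

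Levels differed far more between the genes than between the sites. Per kilobase of the longest protein-coding transcript, the highest mean over the 12 pools was 16878 normalised read counts for Hnrnpa2b1, followed by 13127 for Hnrnpk, 11121 for Snrpb, 9689 for Srsf3, 9482 for Srsf7 and 9301 for Hnrnpf. Before division by length, the mean of Hnrnpk was highest (38988, against 29165 for Hnrnpa2b1). The rank of Hnrnpa2b1 depends on the length used: the transcript taken has 1728 bases, while all its annotated exons cover 6584. Shared sequence of Hnrnpk is 37.8%. Snrpb encodes the SmB protein of the Sm ring, and Srsf3 and Srsf7 are SR proteins that also act in mRNA export. At the other end, Hnrnpa1 had a mean of 4.89 and Srsf12 of 8.39 per kilobase. Hnrnpa1 encodes a member of the hnRNP A/B group that is abundant in many cell types. Its 12 pools held between 0 and 25.5 normalised read counts, from 159 reads in all. Srsf12 had reads in only 2 pools, 136 normalised read counts in thymus pool 1 and 159.6 in arch pool 1. In the other 10 pools its count was 0, where 3 reads would be 1.74 to 5.71. Srsf12 has no shared sequence, whereas that of Hnrnpa1 is the 46.4% given above; what part shared sequence had in the level of Hnrnpa1 was not tested.

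**Figure D2:**
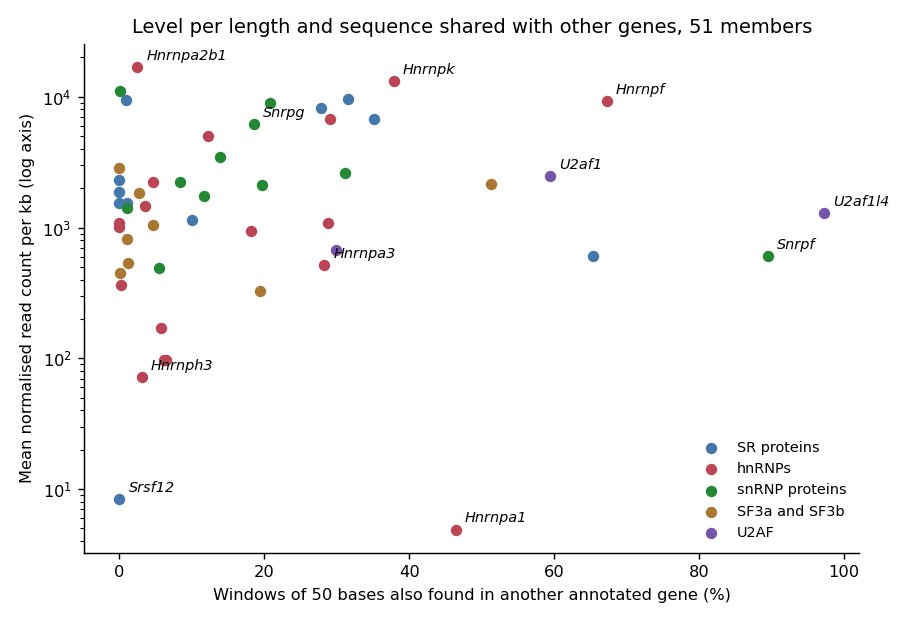
Mean normalised read count per kilobase over 12 pools (y axis, log scale) against the percentage of 50-base windows that also occur in another annotated gene (x axis) for 51 genes, coloured by family. Genes with high shared sequence lie at many levels: Hnrnpf (67.3%) is at 9301 and Hnrnpa1 (46.4%) is lowest at 4.89.

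Shared sequence was highest for U2af1l4 (97.3%, with an overlapping gene model), Snrpf (89.5%), Hnrnpf (67.3%), Srsf4 (65.4%, with a non-coding transcript model), U2af1 (59.4%) and Sf3b4 (51.2%). Levels of these genes are uncertain in so far as reads were split between copies. Hnrnpa0, Hnrnpu, Sf3b1, Srsf6, Srsf9, Srsf11 and Srsf12 had none. Snrpg had 18.6%, with 3 pseudogenes among the 4 other genes.

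Summed over a family, SR protein genes took 0.465% ± 0.0325 of the reads of thymus pools, 0.562% ± 0.0233 of those of adipose pools and 0.486% ± 0.0506 of those of arch pools (SD over 4 pools). Every adipose pool (0.530% to 0.586%) lay above every thymus pool (0.419% to 0.495%), while arch pool 2 reached 0.561%. The hnRNP genes took 0.818% ± 0.0611 in thymus, 0.782% ± 0.0495 in adipose pools and 0.699% ± 0.0255 in arch. Here the arch pools (0.682% to 0.737%) lay below the thymus pools (0.747% to 0.886%), and adipose pools overlapped both. Such a sum rests mostly on the most abundant genes. Among these, Hnrnpf and Hnrnpa2b1 had lower mean normalised read counts in arch than in thymus (17028 against 27496, and 26890 against 34191). Hnrnpk did not (39115 against 37692). The separation is therefore not a trait of every hnRNP gene. The snRNP genes took 0.217% ± 0.00976, 0.203% ± 0.0263 and 0.228% ± 0.0283, and the SF3a and SF3b genes 0.179% ± 0.00872, 0.175% ± 0.0358 and 0.191% ± 0.0229 in the same order. All 51 genes together took 1.70% ± 0.0738, 1.75% ± 0.0523 and 1.63% ± 0.0546. No test was made on these sums. They divide by the total reads of a pool, whereas the differences given elsewhere rest on size factors, so the order of the sites can differ between these scales. On the scale of size factors, 10 of the 17 tested hnRNP genes (58.8%) had a value above 0 in arch minus thymus. For SR protein genes it was 5 of 10 (50%), against 42.7% of all genes. Without arch pools 2 and 4 it was 7 of 17 hnRNP genes (41.2%) and 5 of 10 SR protein genes, against 49.4% of all genes. With edgeR and DESeq2 the counts of both families stayed at 10 and 5, against 47.6% and 47.2% of all genes.

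**Figure D3:**
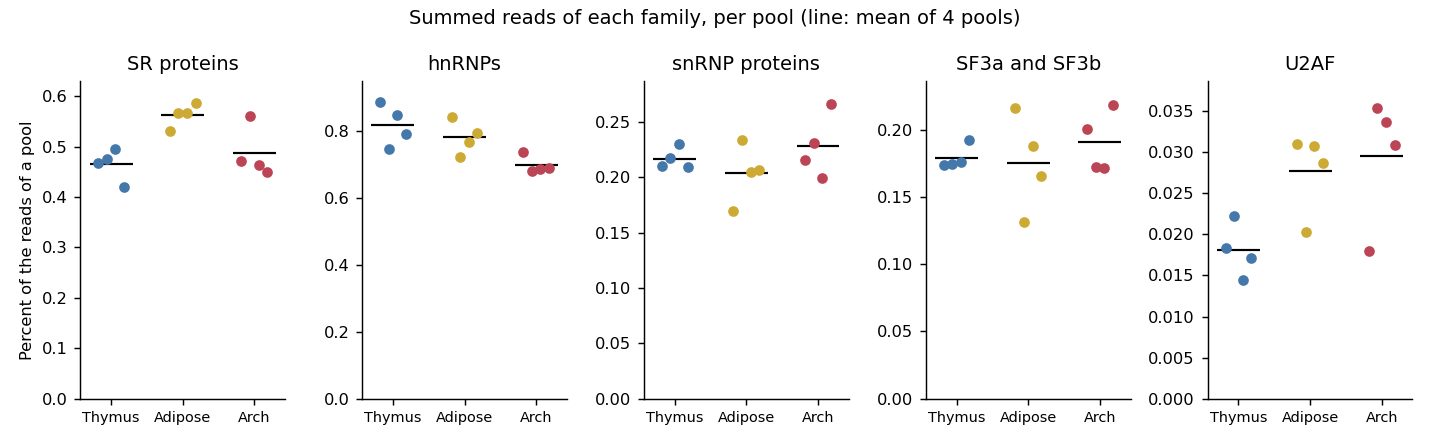
Percentage of a pool's recovered reads (y axes from 0) taken by each family, 1 point per pool and a line at the mean of 4 pools. SR protein genes have their highest mean in adipose pools (0.530% to 0.586%) and hnRNP genes their lowest in arch pools (0.682% to 0.737%), with pools of arch and adipose tissue overlapping in both families.

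None of the 10 tested SR protein genes passed the threshold in any comparison by limma, with 3, 5 and 0 at an unadjusted p under 0.05 in arch against thymus, adipose tissue against thymus and arch against adipose tissue (22.7%, 12.8% and 10.5% of all genes). The shares of all genes called by limma were 6.57%, 2.84% and 0.176%. EdgeR called none. DESeq2, which called 11.1%, 5.92% and 1.83% of all genes, called Srsf3 in the first and Srsf11 in the second. The one nearest to it in arch against thymus was Srsf3, which also regulates the splicing of its own transcript. Its values were 19639.7, 25109.9, 17011 and 17064 in thymus pools 1 to 4, 23686, 29936, 30692 and 25399 in adipose pools and 27976, 36467, 29753 and 21641 in arch pools. Arch pool 4 lay below thymus pool 2, so the groups overlapped. The difference arch minus thymus was 0.55 ± 0.18 (SE, limma adjusted p = 0.0837), and adipose tissue minus thymus 0.49 ± 0.18 (adjusted p = 0.231). In arch minus thymus Srsf3 passed in 1 of 8 fits that left out 1 pool, without arch pool 4 (0.68, limma adjusted p = 0.0381). Without arch pools 2 and 4 it was at 0.57 (limma adjusted p = 0.147). Shared sequence of Srsf3 is 31.5%.

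Srsf11, an SR-related protein known to bind the large subunit of U2AF, had adipose pools apart from both other sites. Its values were 5628, 4031, 7045 and 5106 in thymus, 10886, 8391, 7961 and 9586 in adipose tissue, and 6736, 7164, 5961 and 7194 in arch. The lowest adipose pool lay above the highest thymus and arch pools. Adipose tissue minus thymus was 0.77 ± 0.22 (limma adjusted p = 0.0785) and arch minus adipose tissue -0.44 ± 0.22 (adjusted p = 0.502). Across the whole table, 10.5% and 5.35% of tested genes had pools that did not overlap in these comparisons. Srsf11 passed without thymus pool 3 (0.90, limma adjusted p = 0.0486) and without the 3 pools with fewest reads per library (0.90, limma adjusted p = 0.0323).

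Srsf5, which promotes exon inclusion and is known as a gene induced early by growth signals, had 9272, 13068, 8793 and 8696 in thymus. Its adipose pools held 13163, 15032, 12763 and 18103 and its arch pools 16384, 16865, 12872 and 9840.2. Thymus pool 2 lay within the range of the other tissues. The difference was 0.57 ± 0.22 for adipose tissue minus thymus and 0.48 ± 0.22 for arch minus thymus (limma adjusted p = 0.223 and 0.196). In adipose tissue minus thymus, 5 SR protein genes had an unadjusted p under 0.05, each with a value above 0: Srsf2, Srsf3, Srsf5, Srsf7 and Srsf11, of which Srsf2 and Srsf7 are named after their values were seen. Srsf2 was at 0.50 ± 0.20 and Srsf7 at 0.43 ± 0.19, with limma adjusted p = 0.262 and 0.331.

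Srsf10, an SR protein that represses splicing when dephosphorylated, had the largest negative value of the family. It had 6995, 3699, 7497 and 4059 in thymus, 2238, 4431, 4969 and 3987 in adipose tissue and 3092, 4244, 3502 and 2531 in arch. Thymus pools formed a high and a low pair, and the low pair lay among the other tissues. Arch minus thymus was -0.69 ± 0.32 (limma adjusted p = 0.216) and adipose tissue minus thymus -0.50 ± 0.32 (adjusted p = 0.598). Srsf1, which acts in constitutive and alternative splicing, was at -0.37 ± 0.27 in arch minus thymus (limma adjusted p = 0.430, interval -0.93 to 0.19), and at -0.77 without arch pools 2 and 4 (0.150). Srsf6 was at -0.48 ± 0.26 in that comparison (adjusted p = 0.288). Srsf4, at 734 to 3408 in thymus, 555 to 2725 in adipose tissue and 736 to 2188 in arch, had 1 high pool in each tissue, and its interval for arch minus thymus ran from -1.52 to 1.02 around -0.25 (-0.45 without arch pools 2 and 4). Srsf9 ranged from 799 to 3255 in arch alone.

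Among hnRNPs, Hnrnpf (chr6:117900324-117925622, + strand, GRCm38) was lower in arch. Its values were 34354, 20718, 29341 and 25571 in thymus, 21903, 20894, 20746 and 26328 in adipose tissue, and 21208, 15455, 13829 and 17620.2 in arch. Arch pool 1 lay above thymus pool 2, and the other 3 arch pools lay below every thymus pool. The means were 27496 ± 5776, 22468 ± 2624 and 17028 ± 3190.2 (SD, n = 4). Hnrnpf fell by 0.68 ± 0.19 on the log2 scale in arch against thymus (limma adjusted p = 0.0336), with an interval of -1.08 to -0.29. Arch minus adipose tissue was -0.41 ± 0.19 (adjusted p = 0.465) and adipose tissue minus thymus -0.27 ± 0.19 (adjusted p = 0.620). The call held in 3 of 8 fits that left out 1 pool (arch pool 1, arch pool 4 or thymus pool 2), and over the 8 the difference ranged from -0.81 to -0.57. Without arch pools 2 and 4 it was -0.66 (limma adjusted p = 0.136), and with median centring -0.58 (0.0783). DESeq2 gave an adjusted p of 0.00368 and edgeR 0.0578. With shared sequence of 67.3% (7 pseudogenes among 11 other genes), the level of Hnrnpf is uncertain.

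Hnrnph2, a close relative of hnRNP F encoded on the X chromosome, had the smallest p of the family in adipose tissue against thymus. Its pools held 2568, 1566, 2939 and 2712 in thymus, 5419.9, 4964, 4495 and 5624 in adipose tissue and 4238, 4339, 3701 and 2466 in arch. Adipose pools lay above every pool of the other tissues. Adipose tissue minus thymus was 1.09 ± 0.29 (limma adjusted p = 0.0517, interval 0.48 to 1.71), arch minus thymus 0.59 ± 0.29 (0.238) and arch minus adipose tissue -0.50 ± 0.29 (0.559). Its call was made without arch pools 2 and 4, which enter this comparison only through the shared estimate of the spread (limma adjusted p = 0.0244), and by edgeR (0.0458) and DESeq2 (0.00169). In fits that left out 1 thymus or adipose pool it was made in 0 of 8.

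Hnrnpa2b1, an hnRNP A/B protein that binds RNA in the nucleus and in transport granules, was the most abundant per kilobase. It had 38147, 35132, 36643 and 26841 in thymus, 31040.4, 22792, 24823 and 27002 in adipose tissue and 23172, 25320.0, 25654 and 33415 in arch. Thymus pool 4 lay among the pools of the other tissues. Arch minus thymus was -0.35 ± 0.17 (limma adjusted p = 0.227) and adipose tissue minus thymus -0.37 ± 0.17 (adjusted p = 0.363). Hnrnpk, which binds C-rich RNA, had close means: 37692 ± 2256 in thymus, 40156 ± 8107 in adipose pools and 39115 ± 6909 in arch, with an interval for arch minus thymus of -0.32 to 0.40 around 0.04 (0.23 without arch pools 2 and 4). Hnrnpa0 had an interval of -0.66 to 0.65 in the same comparison.

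Hnrnpc, which binds U tracts and is named here after its values were seen, was at 0.54 ± 0.20 in arch minus thymus (limma adjusted p = 0.113). DESeq2 called it (adjusted p = 0.0339) and edgeR did not (0.141). Hnrnpa3 ran from 1368 to 7086 in thymus, 1005 to 2688 in adipose tissue and 1691 to 2492 in arch, and adipose tissue minus thymus was -0.71 ± 0.45 (adjusted p = 0.585). Hnrnph3 was the least abundant hnRNP tested. It had 128, 359.8, 211 and 152 in thymus, 199, 119, 127 and 202 in adipose tissue and 336, 9.51, 57.3 and 6.22 in arch. The low arch pools include 2 and 4, those with the fewest reads per library at that site. The difference arch minus thymus was -1.68 ± 1.02 (limma adjusted p = 0.348), and -0.39 without these pools.

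Among snRNP proteins, Snrpg (chr6:86371304-86379328, + strand, GRCm38) was higher in arch. Its values were 4265, 4182, 5049.9 and 5568 in thymus, 5652, 7136, 7026 and 5281 in adipose tissue and 7733, 9197, 6223 and 11389 in arch. Every arch pool lay above every thymus pool, which held for 1 of the 49 genes (2.04%) in this comparison against 13.2% of all genes in either direction. Adipose pools lay between, overlapping both. The means were 4766 ± 662, 6274 ± 946 and 8636 ± 2201 (SD, n = 4). Snrpg rose by 0.83 ± 0.24 on the log2 scale in arch against thymus (limma adjusted p = 0.0449, interval 0.33 to 1.33). Adipose tissue minus thymus was 0.39 ± 0.24 (adjusted p = 0.555). The call held in 1 of 8 fits that left out 1 pool (without arch pool 3), with differences of 0.69 to 0.97 and limma adjusted p from 0.0260 to 0.112, and without arch pools 2 and 4 the difference was 0.55 (limma adjusted p = 0.304). Those pools, with the highest levels of Snrpg, are the ones with the fibroblast, smooth muscle and macrophage markers given above, whose part in this result was not tested.

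The other Sm ring genes did not pass. Snrpb was at -0.08 ± 0.23 in arch minus thymus (limma adjusted p = 0.861; -0.22 without arch pools 2 and 4), with 14167, 12421, 12674 and 13649.9 in thymus, 7915, 16357, 12038 and 15086 in adipose tissue and 12248, 11248, 10549.6 and 16588 in arch. Snrpd3 was lower outside the thymus in mean only: 1926 ± 748 in thymus, 1132 ± 473 in adipose pools and 1379 ± 461 in arch. Adipose tissue minus thymus was -0.74 ± 0.46 (adjusted p = 0.571). Snrpd1 was at -0.02 ± 0.30 in that comparison (adjusted p = 0.991, interval -0.66 to 0.62). In arch minus thymus the values of the ring genes ran from -0.43 ± 0.46 for Snrpd3 to 0.83 for Snrpg, and the difference between these genes was not tested. Snrpd3 was at -0.14 there without arch pools 2 and 4, and at 0.067 without the 3 columns with the fewest reads per library.

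Proteins of single snRNPs gave small positive values in arch minus adipose tissue. Snrpa, the U1-A protein of the U1 snRNP, had 3695, 4017, 4724 and 3982 in arch and 2214, 3649.6, 2857 and 3337 in adipose tissue. These pools did not overlap, and the difference was 0.46 ± 0.32 (limma adjusted p = 0.640); thymus pool 3 was higher than all of them at 6284. Snrpb2, a U2 snRNP protein, was at 0.48 ± 0.32 (adjusted p = 0.622), with its highest values in arch pools 2 and 4 (4424 and 5154) and 2301 and 2746 in the others. Without those pools, which hold the markers of other cells given above, it was at 0.02. Snrpc, the U1-C protein, was at 0.50 ± 0.34 in arch minus thymus (adjusted p = 0.402), and at 0.29 without arch pools 2 and 4. All 11 snRNP genes had a value above 0 in arch minus adipose tissue, where 42.0% of all genes did, and their median was 0.32 against -0.17. Snrpb was below 0 with TMM scaling, edgeR and DESeq2, and Snrpb and Snrpc were without arch pools 2 and 4, where the median was 0.16 for the 11 genes and 0.02 for all genes. The share of all genes above 0 was 40.1% with TMM scaling, 47.1% with edgeR, 48.7% with DESeq2 and 51.1% without these pools. With TMM scaling, edgeR and DESeq2 the median of the 11 genes was 0.28, 0.29 and 0.32, against -0.20, -0.05 and -0.02 for all genes. None of the 11 passed in this comparison by limma, edgeR or DESeq2, and none had an unadjusted p under 0.05.

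**Figure D4:**
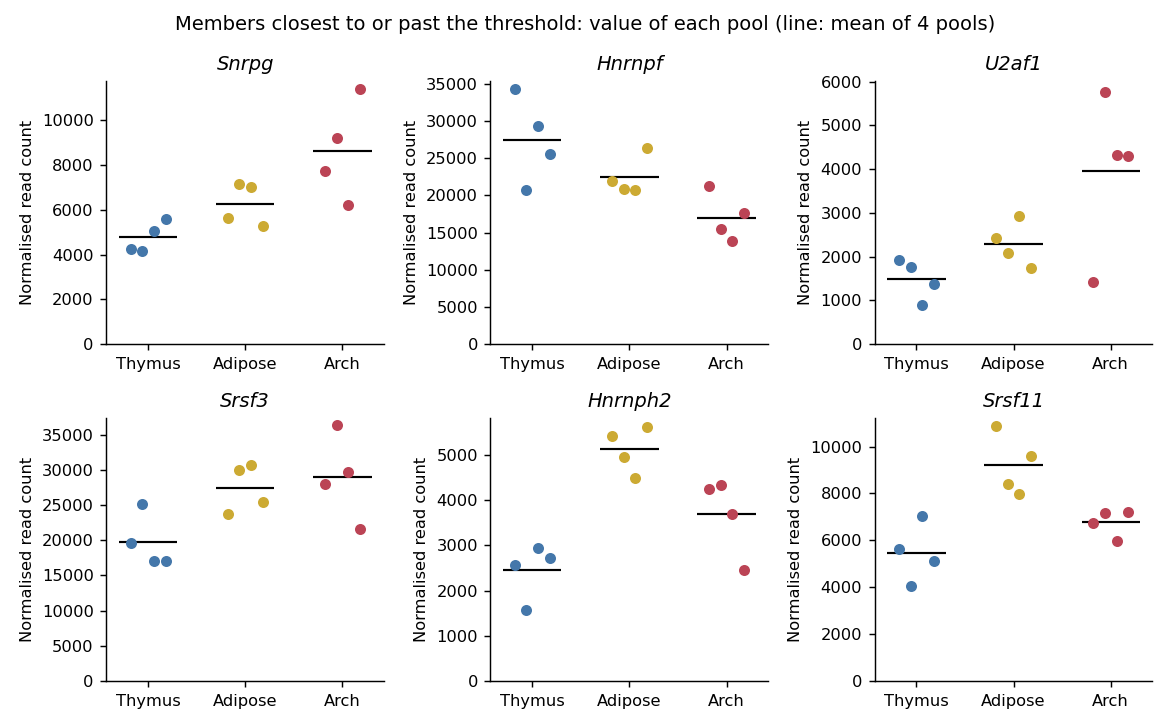
Normalised read count of each pool (y axes from 0) for the 6 genes past or nearest to the threshold, with a line at the mean of 4 pools per tissue. Snrpg arch pools (6223 to 11389) lie above thymus pools (4182 to 5568), and Hnrnph2 and Srsf11 adipose pools lie above all others.

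None of the 8 SF3a and SF3b genes passed in any comparison by limma, edgeR or DESeq2, and 0, 1 and 1 of them had an unadjusted p under 0.05, against 22.7%, 12.8% and 10.5% of all genes. Sf3b1, the subunit that contacts the branch point and the most abundant of the group, had 15561 ± 2344 in thymus, 16618 ± 4817 in adipose pools and 21334 ± 4227 in arch. Arch minus thymus was 0.45 ± 0.22 (limma adjusted p = 0.228), and 0.24 without arch pools 2 and 4 (0.694). Sf3a3, a subunit of SF3a, had its lowest mean in adipose tissue. It had 3983, 3229, 4531 and 5112 in thymus, 1441, 1242, 3098 and 2858 in adipose tissue and 4229.6, 1984, 3767 and 4692 in arch. Adipose pools lay below all thymus pools, while arch pool 2 lay among the adipose pools. Adipose tissue minus thymus was -1.05 ± 0.37 (limma adjusted p = 0.171) and arch minus adipose tissue 0.80 ± 0.37 (adjusted p = 0.468).

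Sf3b3, a scaffold subunit of SF3b, had the largest absolute value of the group, and it rested on 1 pool. It had 3483, 1648, 1999.9 and 3629 in thymus, 2962, 2841, 2957 and 2118 in adipose tissue and 3182, 24.7, 2545 and 1547 in arch. Arch pool 2, the pool with the fewest reads, stood far below the rest. Without it the values were -0.13 in arch minus thymus and -0.21 in arch minus adipose tissue. With all pools, arch minus thymus was -1.56 ± 0.91 (limma adjusted p = 0.323) and 0.16 without arch pools 2 and 4, and arch minus adipose tissue -1.64 ± 0.91 (0.544) and 0.08. Sf3a2 also had a low value there, with 57.1 in arch pool 2 against 524 to 920.4 in the other arch pools; its arch minus thymus was -1.004 ± 0.76 (adjusted p = 0.458) and -0.44 without those pools. Sf3b5 was at 0.67 ± 0.41 in arch minus thymus (adjusted p = 0.348), with 1452 to 3919 in thymus and 1965 to 7017 in arch. Sf3b4 was at 0.24 ± 0.27 in that comparison (0.53 without arch pools 2 and 4) and at 0.24 ± 0.27 in adipose tissue minus thymus (limma adjusted p = 0.634 and 0.806).

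U2af1, the small subunit of U2AF, which reads the AG at the end of the intron, had the largest positive value of all 49 genes. It had 1916, 1765, 893 and 1375 in thymus, 2424, 2077, 2919.8 and 1747 in adipose tissue and 1420.2, 5771, 4323 and 4305 in arch. Arch pools 2, 3 and 4 lay above every other pool and arch pool 1 among those of thymus. Arch minus thymus was 1.29 ± 0.42 (limma adjusted p = 0.0766, interval 0.40 to 2.18). It passed without arch pool 1 (1.72, limma adjusted p = 0.0102) and by DESeq2 (0.00583), and not by edgeR (0.0710). Without arch pools 2 and 4, those with markers of other cells, it was 0.79 (limma adjusted p = 0.435). Shared sequence of U2af1 is 59.4%, all with pseudogenes.

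U2af2, the large subunit, which binds the pyrimidine tract, had 646, 966, 1207 and 1140.0 in thymus, 2613, 1291, 1225 and 3096 in adipose tissue and 1437, 698, 1926 and 1315 in arch. Adipose pools lay above thymus pools, by a narrow gap for pool 3. The difference was 0.96 ± 0.48 (limma adjusted p = 0.418). The 2 subunits of the dimer had their highest means at different sites, U2af1 in arch (3955 ± 1824) and U2af2 in adipose tissue (2056 ± 943); whether this order differs between them was not tested. U2af1l4, a relative of the small subunit, was at 1048 ± 453, 1235 ± 627 and 1118 ± 192 in thymus, adipose tissue and arch, with an interval for arch minus thymus of -0.87 to 1.19 around 0.16 (-0.05 without arch pools 2 and 4).

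Pools of the same tissue differed less for these genes than for the median gene, which is less abundant. The standard deviation of log2 values between pools, averaged over the 3 tissues, had a median of 0.34 for the 49 genes and 0.98 for all 9106. It was 0.26 for the 18 genes with a mean of at least 5000 and 0.50 for the 31 below. Snrpd2 (0.19) and Hnrnpa2b1 (0.22) varied least, and Hnrnpul2 (1.38) and Sf3b3 (1.23) most. Hnrnpul2, an hnRNP U-like protein, ran from 99.6 to 1282 in thymus alone.

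**Figure D5:**
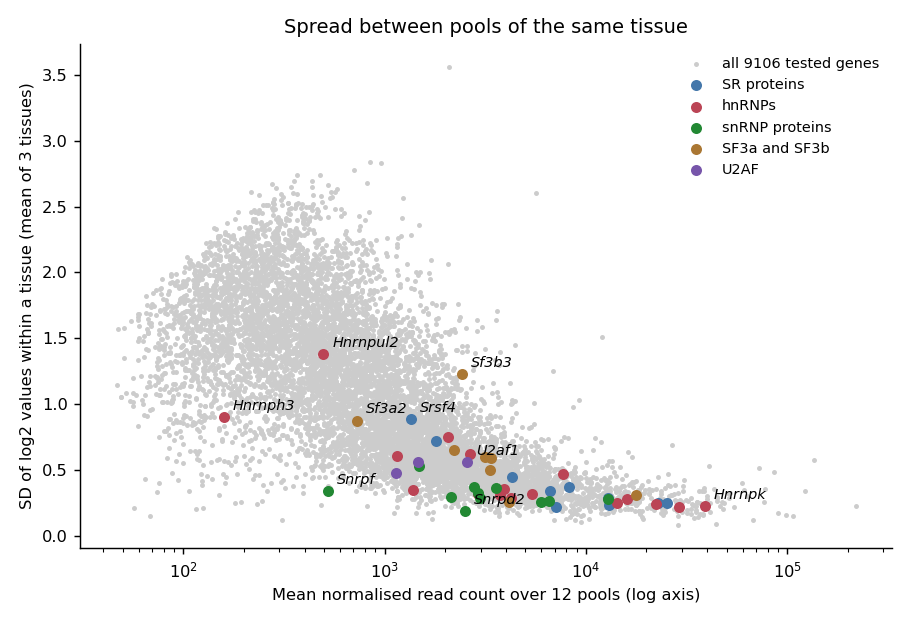
Standard deviation of log2(value + 20) between the 4 pools of a tissue, averaged over 3 tissues (y axis), against the mean normalised read count (x axis, log scale); grey points are all 9106 tested genes and coloured points the 49 genes by family. The coloured points have a median of 0.34, with Hnrnpul2 (1.38) and Sf3b3 (1.23) highest.

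The table also holds Hnrpdl and Hnrpll, older symbols of hnRNP genes that the choice by symbol does not take. Hnrpdl was at 0.84 ± 0.27 in arch minus thymus (limma adjusted p = 0.0741, and DESeq2 called it at 0.0103). Hnrpll, the regulator of Ptprc splicing, had 4501, 1410.0, 2615 and 4444 in thymus, 495, 1479.9, 974.6 and 2921 in adipose tissue and 2561, 1016, 1545 and 199 in arch. Its difference was -1.59 ± 0.68 in arch minus thymus and -1.27 ± 0.68 in adipose tissue minus thymus (limma adjusted p = 0.170 and 0.471). Without arch pools 2 and 4, Hnrpll was at -0.56 in arch minus thymus.

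Genes that work with these factors were followed in 8 lists, with 186 genes tested. In arch against thymus 12 rose and 1 fell (6.99%, background 6.57%), in adipose tissue against thymus 4 rose and 2 fell (3.23%, background 2.84%), and none passed between arch and adipose tissue by limma. In that last comparison 16 of the 186 (8.60%) had an unadjusted p under 0.05, against 10.5% of all genes. There edgeR called 0 of them and DESeq2 5 (2.69%), against 1.83% of all genes by DESeq2. The 5 were Clk1, Isy1, Magoh, Smndc1 and Strap. The median log2 difference over the 186 was -0.01, 0.10 and -0.06 in that order, against -0.20, -0.01 and -0.17 for all genes. No SR-related or coactivator gene (26 tested) and no Lsm gene (12 tested) passed in any comparison by limma or edgeR. At an unadjusted p under 0.05 there were 5, 4 and 0 of the former and 1, 0 and 0 of the latter, against 22.7%, 12.8% and 10.5% of all genes. DESeq2 called 3, 1 and 0 of the former and none of the latter, against 11.1%, 5.92% and 1.83% of all genes.

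Among the 9 tested kinases that phosphorylate SR proteins, Clk1 and Clk3 rose in arch and Clk3 in adipose tissue. These calls were 22.2% and 11.1% of the list, against 6.57% and 2.84% of all genes. Clk3 had 14248, 13496, 15849 and 13356 in thymus, 30972, 23560.2, 31527 and 25046 in adipose tissue and 33306, 26709, 30359 and 32268 in arch. Both other sites lay wholly above the thymus. The rise was 1.10 ± 0.16 in arch and 0.95 ± 0.16 in adipose tissue (limma adjusted p = 0.000199 and 0.00116), and both calls held in 8 of 8 fits without 1 pool. Clk1 had 11987, 18487, 10179.9 and 13793 in thymus and 25335, 43994, 35222 and 19495 in arch, a rise of 1.15 ± 0.26 (limma adjusted p = 0.00919). Shared sequence of Clk3 is 19.0%, mostly with Edc3, and Clk1 has none.

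Of 23 Snrnp-named and tri-snRNP genes, Nhp2l1 and Snrnp40 rose at both sites (8.70% at each, background 6.57% in arch and 2.84% in adipose tissue). Nhp2l1, the protein that binds the kink-turn of U4, had 7545, 6256, 5869.9 and 5692 in thymus, 9285, 15942, 15565 and 12168 in adipose tissue and 18641, 16696, 15219.9 and 18424 in arch. The rise was 1.44 ± 0.21 in arch and 1.04 ± 0.21 in adipose tissue (limma adjusted p = 0.000188 and 0.00597). Snrnp40, a U5 protein, rose by 1.24 ± 0.25 and 1.01 ± 0.25 (limma adjusted p = 0.00521 and 0.0351), and its call in adipose tissue held in 1 of 8 fits without 1 pool.

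In the list of the Prp19 complex and spliceosome catalysis (42 tested), Cwc15, Cwc25, Isy1 and Prpf38a rose in arch, and in adipose tissue Isy1 rose and Ddx39b fell. These calls were 9.52% and 4.76% of the list, against 6.57% and 2.84% of all genes. Isy1, a component of the catalytic spliceosome, had 1990.2, 1002, 3065 and 1969 in thymus, 20508, 13134, 17183 and 29303 in adipose tissue and 8802, 6692, 8334 and 7541 in arch. All 3 sites were apart from each other, with adipose tissue highest. Pools did not overlap for 13.2% of all tested genes in arch against thymus, 10.5% in adipose tissue against thymus and 5.35% in arch against adipose tissue. The rise was 3.35 ± 0.31 in adipose tissue and 2.05 ± 0.31 in arch (limma adjusted p = 1.89e-06 and 0.000317). Arch minus adipose tissue was -1.30 with limma adjusted p = 0.185, where DESeq2 called Isy1 and edgeR did not. Shared sequence of Isy1 is 12.1%, all with a read-through gene model. Prpf38a rose by 1.83 ± 0.41 in arch (limma adjusted p = 0.0105), and without arch pools 2 and 4 its limma adjusted p was 0.0814 and that of Cwc15 0.107 (0.0431 with all pools). Ddx39b, a helicase that loads U2 and export factors, fell by 1.04 ± 0.26 in adipose tissue (limma adjusted p = 0.0318), a call kept in 2 of 8 fits without 1 pool.

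Among 42 other regulators of splicing, Pcbp1 and Rbm3 rose in arch, and Fubp1 fell at both sites. These calls were 7.14% of the list in arch and 2.38% in adipose tissue, against 6.57% and 2.84% of all genes. Pcbp1, a C-tract binding protein, rose by 1.28 ± 0.29 (limma adjusted p = 0.0106, and 0.76 with 0.182 without arch pools 2 and 4), and Rbm3, known as a cold-induced protein, by 0.69 ± 0.18 (adjusted p = 0.0229, and 0.0800 without them). Fubp1, a single-strand DNA and RNA binding protein, had 8401, 7227, 7833 and 5562 in thymus and 4598, 1762, 2178 and 2637 in adipose tissue. It fell by 1.24 ± 0.33 in arch (limma adjusted p = 0.0285, and 0.0686 without arch pools 2 and 4) and by 1.45 ± 0.33 in adipose tissue (0.0176), a call in adipose tissue kept in 2 of 8 fits without 1 pool. Of 18 exon junction and decay genes only Magoh passed, in arch against thymus (5.56%, against 6.57% of all genes). Magoh rose by 1.39 ± 0.31 (limma adjusted p = 0.01003, and 0.90 with 0.144 without arch pools 2 and 4). Of 14 genes of snRNP assembly only Strap passed, in the same comparison (7.14%, against 6.57% of all genes). Strap is a partner of the SMN complex that loads Sm rings. It had 4269, 4611, 3809 and 3541 in thymus and 11332, 14531, 14092 and 11423 in arch, a rise of 1.66 ± 0.26 (limma adjusted p = 0.000480, and 0.00692 without arch pools 2 and 4).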

How the data were processed

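RNA of sorted DP cells was measured in 12 pools, 4 per tissue. Per the labels' protocols, polyadenylated RNA was amplified from lysed cells. The submitters' processing notes name FastQC 0.11.5, STAR 2.6.0c and GRCm38, while how reads were assigned to genes, and with which annotation, is not given in the sources used here. Values deposited are a normalised signal, which is gene reads divided by a size factor per pool: all 120369 values above 0 were whole reads (tolerance 0.01) once each column was divided by its step, with 11577253 to 34599519 reads per pool. The technical libraries of a pool share 1 column. limma 3.58.1 (R 4.3.3, trend) was fitted on log2(value + 20) over the 9106 genes that reached 100 in 4 or more columns, with tissue as the only term. Adjusted p-values are Benjamini-Hochberg over all genes. edgeR 4.0.16 and DESeq2 1.42.0 ran on the recovered reads. The limma step was also run on simulated data with the same spread setting for every gene. That run cannot show how the test performs at the spread of these pools.

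Genes were named by a fixed rule (those past the threshold, the 2 largest and the 1 smallest absolute differences of each family in each comparison, the highest mean of each family, and in each gene list and comparison up to 2 called genes by smallest p). Names outside the rule (Srsf2, Srsf7, Hnrnpc, Snrpd2, Hnrnpul2, Cwc15, Cwc25, Smndc1 and those named only for shared sequence or a motif) were chosen after their values were seen. The gene lists came from known roles. The genes and lists were chosen with earlier results of these data known. Counting error and low-input amplification both enter the spread between pools. Each pool joins 5 mice, and the p-values measure only the spread between pools. Pseudocounts, filters, scalings, left-out pools and a block on the pool number were tried as alternatives. Promoters, and matches of symbols to older ones, came from RefSeq tables.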

Additional observations from a re-analysis of the deposited data

Results flagged for a closer look

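In 5 of 93 groups of 4 pools (5.38%) 1 pool lay apart from the other 3, with a gap to its nearest neighbour above Dixon's 95% critical value. Chance flags about 1 in 20 groups, but the rule picks genes in part by the size of their differences, which a pool lying apart can raise. The 5.38% can therefore not be judged against that rate. Sf3b3 in arch pool 2 had a normalised read count of 24.7, against 1547 to 3182 in the other arch pools, and in adipose pool 4 it had 2118 against 2841 to 2962. Snrpd1, an Sm ring gene, had 3204 in adipose pool 2 against 2485 to 2591. Thymus pool 2 held both remaining cases: Srsf1 had 5961 against 9955 to 10401, and Srsf5 had 13068 against 8696 to 9272. The cause was not tested.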

How the results depend on the processing

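Arch against thymus, 2 of the 49 genes passed; the count was 5 with DESeq2, 1 with edgeR, 1 with median centring, 1 with the replicate block (Hnrnpf), and 0 with no filter, with only the 8 columns compared, without arch pools 2 and 4 (chosen after seeing the data) and without the 3 columns with the fewest reads per library. Leaving out 1 pool gave 0 to 2: 0 without arch pool 2 or thymus pools 1, 3 or 4, and 1 without arch pool 3 or thymus pool 2. Adipose tissue against thymus, 0 passed; the count was 1 with TMM scaling, edgeR, a filter of 500, median centring, only the 8 columns, a pseudocount of 5 and without arch pools 2 and 4, and 2 with DESeq2 and without the 3 columns with the fewest reads. Leaving out 1 pool gave 0 to 1 (1 without thymus pool 3). Arch against adipose tissue stayed at 0 in every alternative run. The block used pool numbers, and the labels do not say whether pools with the same number came from the same mice. Same-numbered pools correlated at -0.032 to 0.076 in their deviations, and pools of unlike number at -0.088 to 0.073. In adipose tissue against thymus the means were 0.040 and -0.013. Of 8 pools, 3, 5 and 3 correlated best with their own number in the order above. Correlations this weak cannot decide whether the pools are paired.

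Over all genes, 598 calls in arch against thymus (363 higher, 235 lower) became 1007 with DESeq2, 365 with edgeR (278 higher, 87 lower), 334 without arch pools 2 and 4 and 308 without the 3 columns; median centring gave 412 higher and 173 lower. The 259 calls in adipose tissue against thymus became 539 with DESeq2 and 169 without adipose pool 4. The 16 calls in arch against adipose tissue became 167 with DESeq2, 8 with edgeR, 2 with no filter, 9 with a pseudocount of 5, 0 without arch pools 2 and 4, 0 without the 3 columns and 2 to 14 without 1 pool.

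Over all 147 differences of the 49 genes, 183 of 2937 values under alternatives had the opposite sign, none of them called (lowest limma adjusted p = 0.574). For the genes and comparisons that the naming rule picks, 63 of 898 changed sign (lowest limma adjusted p = 0.772) and are given here; the cause was not tested. Below, "both" means without arch pools 2 and 4 and without the 3 columns, and a range is over fits without 1 pool. In arch minus thymus, Hnrnpa0 became 0.0029 (DESeq2), 0.016 (edgeR), 0.10 (median centring), 0.094 (without the 3 columns) and -0.14 to 0.13; Sf3b3 0.16 (without arch pools 2 and 4) and 0.047 (without the 3 columns); Snrpb 0.024 (median centring); Srsf4 -0.57 to 0.20; and U2af1l4 -0.045 (without arch pools 2 and 4) and -0.18 (without the 3 columns). Of the differences outside the rule, Hnrnpk was at -0.052 without arch pool 3 and Snrpd3 at 0.067 without the 3 columns in arch minus thymus. In adipose tissue minus thymus, Hnrnpk ranged from -0.0084 to 0.22. Sf3a2 became -0.068 (without the 3 columns) and -0.12 to 0.31, Snrpd1 0.022 (TMM), 0.021 (median centring) and -0.13 to 0.18, and U2af1l4 -0.096 to 0.47. In arch minus adipose tissue, Hnrnpa2b1 became -0.020 (TMM), -0.0036 (edgeR), -0.11 (both) and -0.088 to 0.10. Sf3b3 was 0.078 (both), and Sf3b4 0.023 (DESeq2), 0.00067 (edgeR), 0.063 (median centring), 0.28 (both) and -0.15 to 0.11. Snrpb was -0.012 (DESeq2), -0.033 (TMM), -0.047 (edgeR), -0.12 (both) and -0.21 to 0.14. Srsf9 was -0.030 (TMM), -0.15 (both) and -0.38 to 0.29, and U2af1l4 0.019 (median centring) and -0.19 to 0.26.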
